A study of Mus musculus with 8 samples.

Results

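The genes of fatty acid oxidation were examined in fibroblasts sorted from healing mouse infarcts. They were taken from a list of 35 gene symbols that covers the mitochondrial and peroxisomal β-oxidation enzymes, the carnitine shuttle, the acyl-CoA synthetases and the PPAR control of the pathway, and each symbol matched 1 row of the 54532 genes in the deposited table. Of the 35 members, 33 had an FPKM (read fragments normalised to gene length and to library depth) of 1 or more in 4 or more libraries and entered the test. Cpt1b and Ppara stayed below that filter. The libraries were made from poly(A) RNA of PDGFRα+ cells, a growth factor receptor that marks fibroblasts, 7 days after coronary occlusion and with no step in culture. They fall into 4 libraries labelled FTbR2KO, with fibroblast-specific loss of the type 2 TGF-β receptor TbR2, and 4 labelled TbR2fl/fl, the controls with the floxed gene. Mice of both groups had received tamoxifen. The sources used here do not give the Cre driver, strain, age or sex. Each title also carries a code of its own, and no label says whether it marks an animal, a litter or a day. Whether 1 animal or several stand behind a library is not labelled either. The p-values then set the difference between groups against the variation between these libraries only. The libraries keep the numbers of their titles, FTbR2KO 1 to 4 and TbR2fl/fl 5 to 8.

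In β-oxidation, a fatty acid is first joined to coenzyme A by an acyl-CoA synthetase. Long chains then cross into the mitochondrion on carnitine, by CPT1, the translocase SLC25A20 and CPT2. Inside, a dehydrogenase, a hydratase, a further dehydrogenase and a thiolase act in turn and release acetyl-CoA, and the first dehydrogenase passes its electrons through the flavoprotein ETF. Peroxisomes run a similar cycle on very long and branched chains. PPARα and PPARδ are nuclear receptors that sense fatty acids and switch on many of these genes. The working heart draws most of its energy from the pathway, mainly in its cardiomyocytes.

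Depth was 16088616 to 22928496 reads in the libraries labelled FTbR2KO and 21200735 to 28731923 reads in the controls, as recovered from FPKM and gene length. The fibroblast label held, with Pdgfra at 45.5 to 85.6 FPKM. Of the 8 fibroblast markers, 2 (25%) did not overlap between groups, the collagen genes Col1a1 and Col1a2, both lower under the FTbR2KO label. Over all tested genes that share was 4.41% (1.89% lower). Col1a1 measured 3496 to 4508 FPKM in the libraries labelled FTbR2KO and 4682 to 5338 FPKM in the controls (log2 fold change -0.35, SE 0.14, limma adjusted p = 0.571). Summed, the 8 markers came to 10727 to 12596 FPKM and to 12185 to 13887 FPKM. Cardiomyocyte transcripts were low: 12 of 15 markers stayed under 1 FPKM in all libraries, among them Myh6 (0.154 to 0.375 FPKM). The others were Actc1 (0.392 to 2.81 FPKM), Cox7a1 (0.639 to 2.30 FPKM) and Tnnt2 (0.511 to 1.20 FPKM). The 15 markers summed to 4.70 to 7.76 FPKM in the libraries labelled FTbR2KO and to 6.03 to 7.38 FPKM in the controls. Of the adipocyte markers 8 of 8 stayed under 1 FPKM, with Lep and Retn listed at 0, and their sums were 0.189 to 0.471 and 0.0473 to 0.342 FPKM. Plin1, a coat protein of lipid droplets, had 58 reads under the FTbR2KO label (0.0282 to 0.297 FPKM) and 7 in controls (0 to 0.0293 FPKM). Ptprc, the pan-leukocyte marker, did not exceed 0.0346 FPKM, but macrophage transcripts were not absent. The 9 macrophage markers, Ptprc among them, summed to 7.55 to 11.0 FPKM over the 8 libraries. Of these, 5 stayed under 1 FPKM in all libraries, while Cd68 measured 2.01 to 7.15 FPKM and Lyz2 at least 2.45 FPKM. Mural markers summed to 27.8 to 46.3 and 29.2 to 34.2 FPKM. The part of the fibroblast, adipocyte and mural markers in the results was not tested. In bulk libraries, fewer cells of a type and less RNA per cell cannot be told apart. Tgfbr2, the targeted gene, was higher in the libraries labelled FTbR2KO (58.2 ± 1.30 against 45.5 ± 3.86 FPKM, SD, n = 4 each), the reverse of the label, and a gene-level value cannot show the loss of an exon, so groups are named by their labels. FTbR2KO 1 and TbR2fl/fl 5 stood apart from the other 6 libraries on the first principal component (-24.4 and -20.9 against -0.108 to 19.0), and results that rest on them are given with and without them. Xist, the RNA of the inactive X chromosome, was near 0 in 1 library of each group, FTbR2KO 4 (0.0561 FPKM) and TbR2fl/fl 8 (0.0215 FPKM).

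To show what lies before the start sites of these genes, 250 bases upstream are printed for 4 members: Etfa and Echs1, which hold a match to the PPAR response element, and Pdk4 and Cpt1a, 2 PPAR targets that were highest in TbR2fl/fl 5. The sequences are RefSeq promoters on GRCm38.p6, 5′ to 3′ on the strand of the gene, with the match in capitals and all else in lower case. In the deposited annotation Pdk4 reaches up to base 5496309 and Echs1 up to base 140116476, so the last bases printed for both lie inside the annotated gene.
Etfa, chr9:55512244-55512493, minus strand: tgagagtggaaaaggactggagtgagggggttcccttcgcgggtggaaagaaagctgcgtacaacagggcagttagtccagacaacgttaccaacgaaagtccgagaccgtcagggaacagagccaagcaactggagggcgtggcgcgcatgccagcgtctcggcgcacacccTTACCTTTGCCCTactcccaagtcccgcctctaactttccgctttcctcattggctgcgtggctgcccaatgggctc
Echs1, chr7:140116422-140116671, minus strand: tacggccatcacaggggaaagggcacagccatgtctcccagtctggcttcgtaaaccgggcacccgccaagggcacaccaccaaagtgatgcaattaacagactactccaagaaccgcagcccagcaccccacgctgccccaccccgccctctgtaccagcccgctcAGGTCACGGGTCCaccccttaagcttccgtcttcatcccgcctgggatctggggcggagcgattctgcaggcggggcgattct
Pdk4, chr6:5496279-5496528, minus strand: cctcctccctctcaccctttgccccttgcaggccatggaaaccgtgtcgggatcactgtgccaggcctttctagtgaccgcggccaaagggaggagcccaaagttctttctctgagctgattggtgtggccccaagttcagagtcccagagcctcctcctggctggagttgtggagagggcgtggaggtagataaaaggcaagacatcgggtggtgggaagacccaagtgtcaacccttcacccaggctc
Cpt1a, chr19:3323051-3323300, plus strand: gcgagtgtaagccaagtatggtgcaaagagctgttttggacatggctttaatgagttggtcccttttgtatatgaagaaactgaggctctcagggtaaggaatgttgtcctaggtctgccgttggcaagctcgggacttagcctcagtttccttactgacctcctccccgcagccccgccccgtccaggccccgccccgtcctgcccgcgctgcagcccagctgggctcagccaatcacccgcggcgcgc

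The motif searched was the direct repeat that PPAR and RXR pairs bind, AGGTCA and again AGGTCA with any 1 base between them, with up to 2 mismatches on both strands of a window from 250 bases before to 50 bases after the start. A promoter was at hand for 30 of the 35 members, with 31 windows in all. A match was found in 3 of these 31 windows (9.68%), against 3.86% of the 32851 promoters of all genes. Echs1 matched on the gene's strand (AGGTCACGGGTCC) in a window that overlaps Paox in the deposited annotation, Etfa on the opposite strand (AGGGCAAAGGTAA), and Slc25a20 at bases 108662142 to 108662154 of chromosome 9 (AGGTGAAAGGTCG). The motif TNAAGGTCA, bound by the estrogen-related receptors, was found in none of the 31 windows and in 1.28% of all promoters. The motifs can share AGGTCA, so 1 stretch could match both. These matches describe letters only, and Pdk4 and Cpt1a had none in this window.

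FPKM is set per deposited gene length, so the order of genes by level depends on that length. Hadha had 24974 reads over the 8 libraries at a listed length of 8730 bases, and Acaa2 had 7687 reads at 1515 bases. Acsl1 had 1908 reads at 10483 bases, and Etfb had 897 reads at 1164 bases. Levels below are compared by FPKM only. The highest control means belonged to Acaa2 (28.6 FPKM), the mitochondrial thiolase, Cpt1a (27.4), the gate of the carnitine shuttle, Etfa (26.7), the α chain of ETF, Acadl (24.3), the long-chain dehydrogenase, and Hsd17b10 (24.2), a dehydrogenase of short and branched chains. Acaa2 and Cpt1a stood at percentiles 88.6 and 88.0 of all 11667 tested genes. Neighbours among these 5 did not differ beyond their spread, with SDs of 7.03 FPKM for Acaa2 and 6.56 FPKM for Cpt1a. At the low end lay Ehhadh (1.79 FPKM), the bifunctional enzyme of peroxisomes, Acsl1 (0.981), the main synthetase of heart muscle and fat, Ppara (0.288) and Cpt1b (0.0615).

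**Figure D1:**
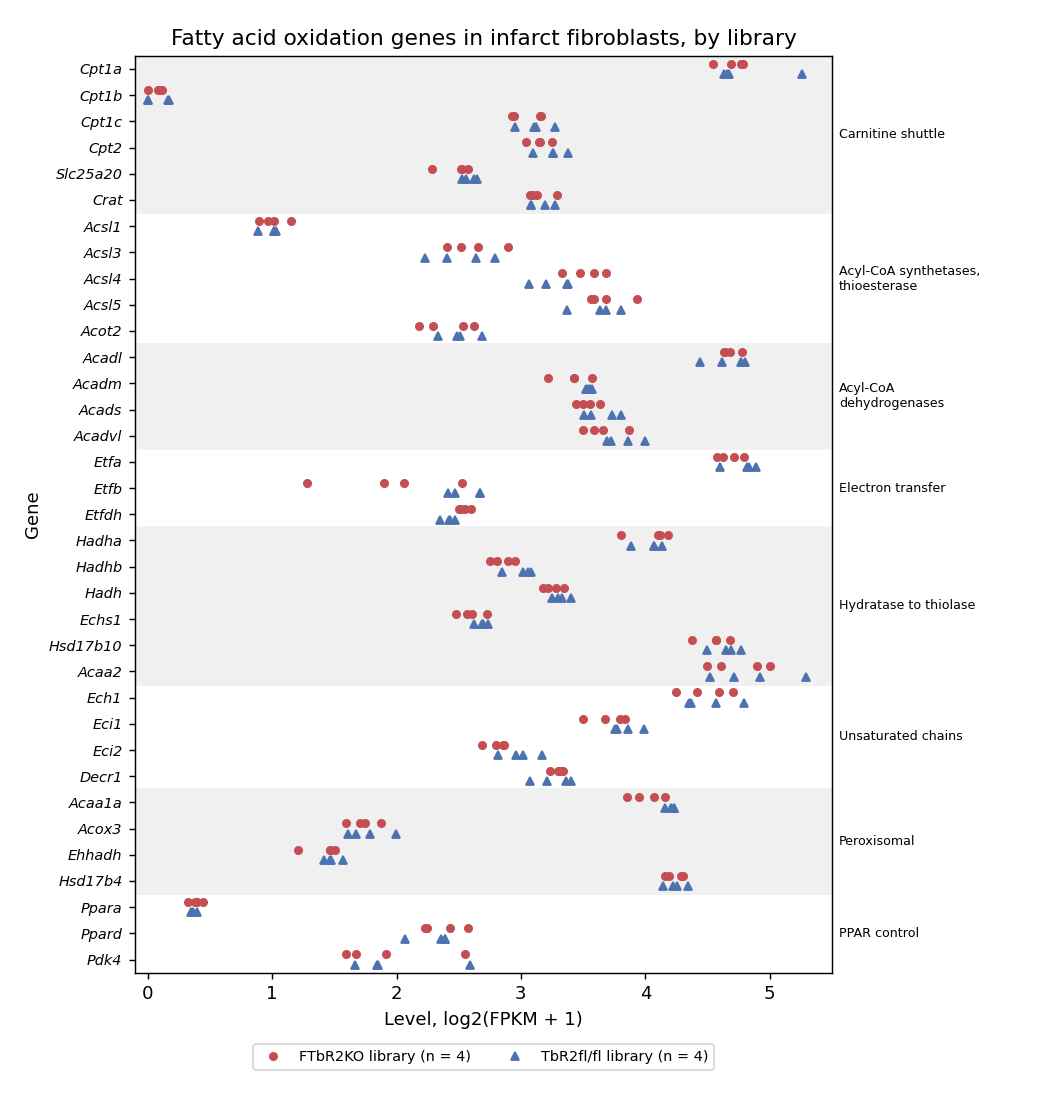
Level of each of the 35 members as log2(FPKM + 1) on the x axis, 1 point per library, with genes grouped by role. Circles are the 4 libraries labelled FTbR2KO and triangles the 4 TbR2fl/fl controls, which overlap for every gene but Etfdh and Acaa1a.

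None of the 33 tested members differed between genotypes at the threshold. The groups were compared with limma on log2(FPKM + 1) over all 11667 tested genes, with Benjamini-Hochberg adjustment and a threshold of 0.05. Only 2 genes (0.0171%) passed, and neither is a member. With voom on recovered reads 0 members passed too, and 2 had an unadjusted p under 0.05. The smallest adjusted p of any member was 0.571. At an unadjusted p under 0.05 there were 3 members, 1 higher (Acsl4) and 2 lower (Etfb and Acaa1a), or 9.09% of the 33, against 8.61% of all tested genes (3.74% higher and 4.87% lower). The share of members was thus near that of all genes. The groups did not overlap for 2 members (6.06%), Etfdh (higher) and Acaa1a (lower), against 4.41% of all tested genes (2.52% higher and 1.89% lower). Fold changes are on the log2(FPKM + 1) scale, which understates the change of low genes.

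**Figure D2:**
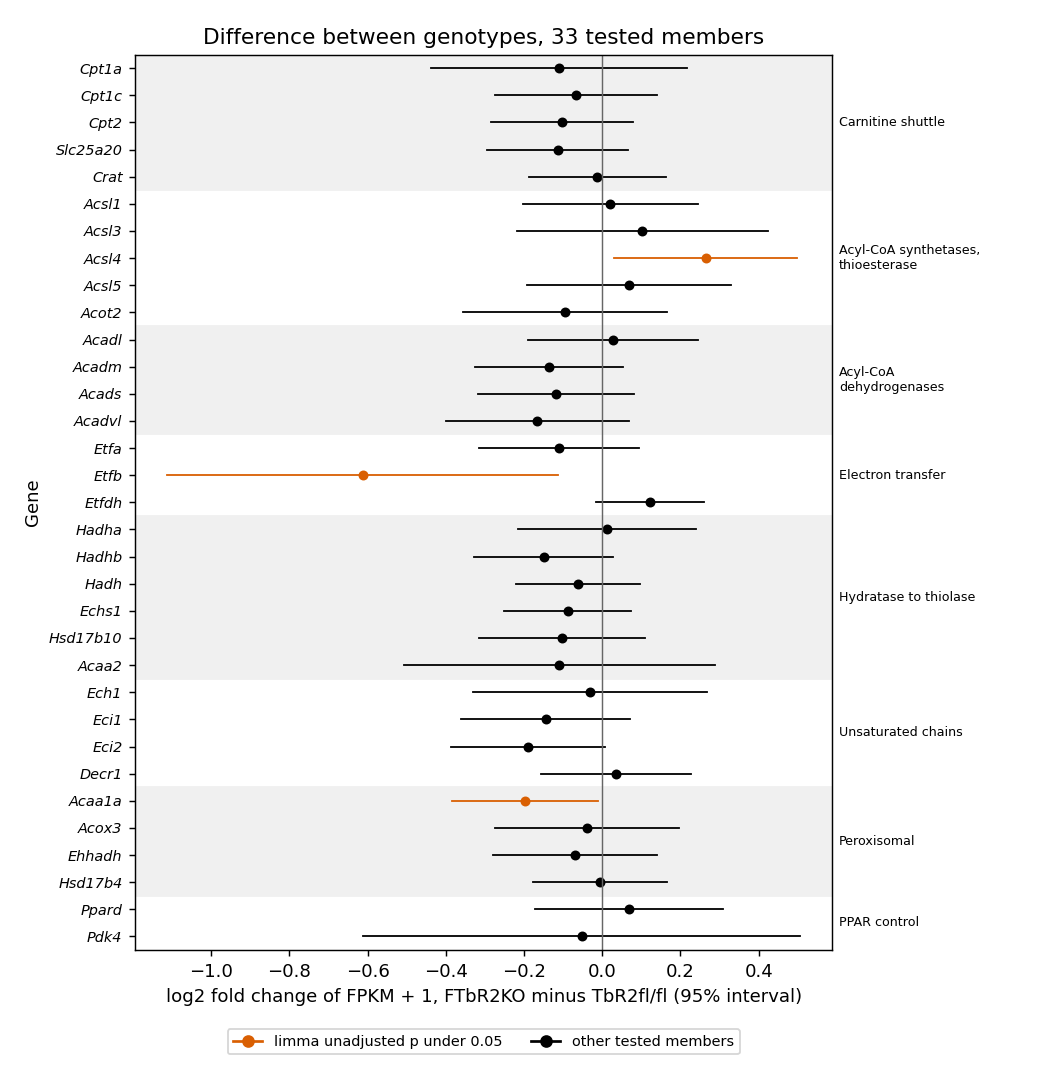
Log2 fold change of each tested member with its 95% interval from limma (n = 4 libraries each), grouped by role. Coloured points are the 3 members with an unadjusted p under 0.05, with Acsl4 above 0 and Etfb and Acaa1a below.

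By direction, 24 of the 33 tested members lay below 0 and 9 above, with a median log2 fold change of -0.070, beside -0.0045 and 51.2% below 0 over all tested genes. The members' fold changes ran from -0.61 (Etfb) to 0.27 (Acsl4). Relative to each gene's mean over the 8 libraries, the median member lay at -0.032, -0.054, -0.031 and -0.0048 (log2) in FTbR2KO 1 to 4 and at 0.021, 0.044, 0.039 and 0.032 in TbR2fl/fl 5 to 8. Over all tested genes the median lay at -0.026, 0.011, 0.0097 and 0.0088 in FTbR2KO 1 to 4. In TbR2fl/fl 5 to 8 it lay at -0.031, 0.015, 0.016 and 0.013. For the members, the libraries labelled FTbR2KO all lay below the controls, by a few hundredths of a log2 unit. The shift was smaller without FTbR2KO 2 (-0.032), without TbR2fl/fl 5 (-0.039), with array weights (-0.030) and after a correction for gene length and GC content (-0.039), and it was -0.050 without FTbR2KO 1 and TbR2fl/fl 5. On the TPM scale 5 of 33 lay below 0 and the median turned to 0.059, where the median of all tested genes moved to 0.15, so that the members still lay below it by 0.093.

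**Figure D3:**
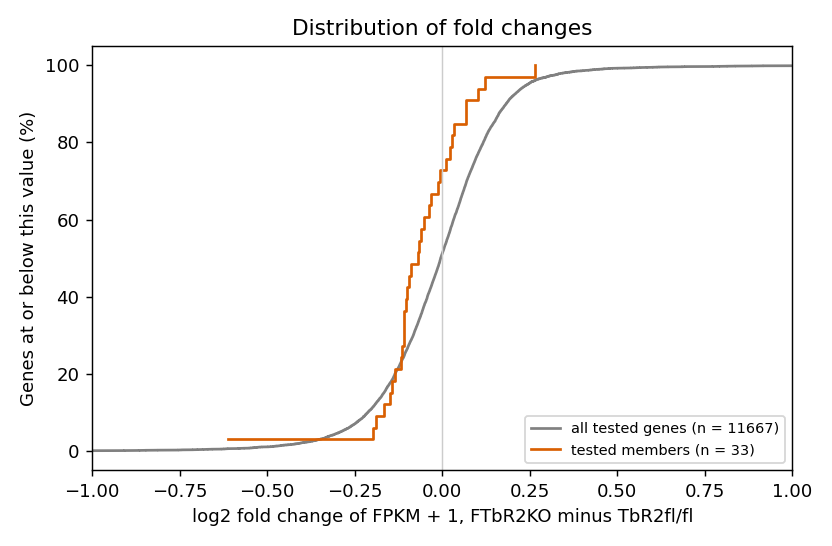
Cumulative share of genes (y axis, %) at or below each log2 fold change (x axis, FTbR2KO minus TbR2fl/fl), for the 33 tested members and all 11667 tested genes. The axis ends at 1 on either side, which leaves out 25 of all tested genes, and at 0 the members' curve stands at 72.7% and that of all genes at 51.2%.

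Among the 3 CPT1 genes of the carnitine shuttle, Cpt1a had the highest FPKM. Cpt1a measured 26.6, 22.3, 24.7 and 26.2 FPKM in FTbR2KO 1 to 4 and 37.3, 23.8, 24.2 and 24.5 FPKM in TbR2fl/fl 5 to 8. TbR2fl/fl 5 was the highest of all, and the other 7 libraries lay close together. Its log2 fold change of -0.11 (SE 0.15, 95% interval -0.44 to 0.22, n = 4 each, limma adjusted p = 0.845) turned to 0.041 without TbR2fl/fl 5 and to 0.011 without FTbR2KO 1 as well. Cpt1c, a brain-type relative with little transferase activity, was present at 6.62 to 8.65 FPKM. For Cpt1b, the muscle-type enzyme, the libraries gave 0.0854, 0, 0.0600 and 0.0649 FPKM in FTbR2KO 1 to 4 and 0.121, 0, 0 and 0.125 FPKM in TbR2fl/fl 5 to 8, from 14 and 24 reads per group (exact permutation p = 0.914, 2-sided; 4 against 4 allow no p below 0.0286). It overlaps a gene on the same strand, so its counting is uncertain, yet it was at or near 0 throughout. Cpt2, which hands the chain back to coenzyme A on the inner side, measured 7.83, 7.92, 8.49 and 7.23 FPKM in FTbR2KO 1 to 4 and 8.57, 9.38, 7.56 and 8.58 FPKM in TbR2fl/fl 5 to 8. These ranges overlapped. Slc25a20, the translocase, (3.86 to 5.27 FPKM over the 8 libraries) and Crat, the acetyltransferase for short chains, (7.41 to 8.76 FPKM) had ratios of highest to lowest of 1.36 and 1.18. All 5 tested shuttle genes lay below 0, at -0.11 to -0.012, and 0 of 5 had an unadjusted p under 0.05.

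Among the synthetases that activate fatty acids, Acsl5 and Acsl4 had the highest FPKM and Acsl1 the lowest. Acsl4, which prefers arachidonic acid, measured 10.1, 11.0, 11.9 and 9.04 FPKM in FTbR2KO 1 to 4 and 8.20, 9.41, 7.39 and 9.33 FPKM in TbR2fl/fl 5 to 8. The 3 highest values all belonged to the FTbR2KO label and FTbR2KO 4 lay among the controls. The log2 fold change was 0.27 (SE 0.10, 95% interval 0.031 to 0.50, n = 4 each, limma adjusted p = 0.571). The X chromosome carries it (chromosome X, 142317993 to 142390535, minus strand), and the fold change with Xist as a covariate was 0.26, and on the TPM scale 0.45. Acsl5, found on mitochondria and endoplasmic reticulum, measured 11.0, 11.9, 14.3 and 10.8 FPKM in FTbR2KO 1 to 4 and 9.37, 11.4, 12.9 and 11.9 FPKM in TbR2fl/fl 5 to 8, with overlapping groups. Acsl3, an enzyme of lipid droplets, ranged over 3.69 to 6.43 FPKM, a ratio of highest to lowest of 1.74. Acsl1 stayed at 0.847 to 1.22 FPKM, and Acot2, a mitochondrial thioesterase that cleaves acyl-CoA, at 3.54 to 5.45 FPKM. In this role 4 of 5 genes lay above 0, the 4 synthetases, with a median of 0.068.

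The acyl-CoA dehydrogenases, which take the first step of the cycle and differ in the chain length they accept, had 0 of 4 genes at an unadjusted p under 0.05. Acadl measured 24.6, 24.0, 26.4 and 23.8 FPKM in FTbR2KO 1 to 4 and 26.8, 26.2, 23.6 and 20.7 FPKM in TbR2fl/fl 5 to 8. Acadvl, for very long chains, measured 10.3, 11.0, 11.7 and 13.6 FPKM in FTbR2KO 1 to 4 and 12.0, 12.2, 15.0 and 13.5 FPKM in TbR2fl/fl 5 to 8. Neither gene separated the groups. Acadm, for medium chains, was 9.67 ± 1.07 against 10.7 ± 0.163 FPKM (SD, n = 4 each), with a log2 fold change of -0.14 and an adjusted p of 0.654 in limma, and Acads, for short chains, was 10.6 ± 0.665 against 11.6 ± 1.24 FPKM. The 3 of 4 below 0 were Acadm, Acads and Acadvl.

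Electron transfer held the lowest fold change of the 33 tested members, that of Etfb. Etfb, the β chain of ETF, measured 3.17, 1.43, 2.74 and 4.78 FPKM in FTbR2KO 1 to 4 and 5.38, 4.53, 4.32 and 5.37 FPKM in TbR2fl/fl 5 to 8. FTbR2KO 1 to 3 lay below all controls, with FTbR2KO 2 far the lowest, and FTbR2KO 4 lay among them. The log2 fold change was -0.61 (SE 0.22, 95% interval -1.11 to -0.11, n = 4 each, limma adjusted p = 0.571). Behind it were 283 reads under the FTbR2KO label and 614 in controls, and without FTbR2KO 2 the fold change was -0.39. Etfb (chromosome 7, 43444083 to 43457800, plus strand) overlaps 3 annotated genes on its own strand, so its counting is uncertain.

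Its partner chain Etfa gave 25.2, 22.8, 26.7 and 23.6 FPKM in FTbR2KO 1 to 4 and 23.3, 27.2, 27.5 and 28.7 FPKM in TbR2fl/fl 5 to 8. These values overlapped between groups. The difference between both chains was not tested. Etfdh, the oxidoreductase that passes the electrons to ubiquinone, measured 4.73, 4.86, 5.04 and 4.67 FPKM in FTbR2KO 1 to 4 and 4.36, 4.54, 4.11 and 4.40 FPKM in TbR2fl/fl 5 to 8. Every library labelled FTbR2KO lay above every control, although by little. The log2 fold change was 0.12 (SE 0.061, 95% interval -0.016 to 0.26, n = 4 each, limma adjusted p = 0.599). After correction for gene length and GC content the fold change was 0.027, and on the TPM scale 0.30. Etfdh overlaps Gm37973 on its own strand and 4930579G24Rik on the opposite strand, so its counting is uncertain too.

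The hydratase, dehydrogenase and thiolase steps showed no member at an unadjusted p under 0.05, and 5 of 6 lay below 0 (median -0.095). Acaa2 measured 31.1, 21.6, 28.8 and 23.3 FPKM in FTbR2KO 1 to 4 and 38.2, 25.2, 29.3 and 21.9 FPKM in TbR2fl/fl 5 to 8. TbR2fl/fl 5 and FTbR2KO 1 were the highest, and TbR2fl/fl 8 was about as low as FTbR2KO 2. Its log2 fold change was -0.11, with 0.034 without TbR2fl/fl 5 and -0.050 without FTbR2KO 1 as well. Hsd17b10 measured 19.7, 22.7, 22.7 and 24.7 FPKM in FTbR2KO 1 to 4 and 21.6, 26.2, 24.8 and 24.0 FPKM in TbR2fl/fl 5 to 8, with overlapping groups. Hadha and Hadhb encode the 2 chains of the trifunctional protein that acts on long chains. Hadha was 15.7 ± 1.84 against 15.5 ± 1.19 FPKM and Hadhb 6.23 ± 0.442 against 7.02 ± 0.571 FPKM (SD, n = 4 each), with log2 fold changes of 0.012 and -0.15 and limma adjusted p-values of 0.981 and 0.611. Hadha turned direction in 6 of 21 alternatives, and Hadhb ran from -0.26 to -0.0042 over them. Hadh, the dehydrogenase for medium and short chains, (8.03 to 9.57 FPKM over the 8 libraries) and Echs1, the short-chain hydratase, (4.57 to 5.64 FPKM) had ratios of highest to lowest of 1.19 and 1.23.

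Unsaturated chains need helper enzymes that move or remove double bonds. Ech1, a dienoyl-CoA isomerase, measured 23.1, 18.0, 25.1 and 20.3 FPKM in FTbR2KO 1 to 4 and 26.8, 22.6, 19.6 and 19.5 FPKM in TbR2fl/fl 5 to 8. Eci1, an enoyl-CoA isomerase, measured 12.9, 10.3, 11.8 and 13.3 FPKM in FTbR2KO 1 to 4 and 12.5, 12.7, 14.9 and 13.6 FPKM in TbR2fl/fl 5 to 8. Both overlapped between groups. Eci2, its relative in peroxisomes and mitochondria, was 5.98 ± 0.378 against 6.99 ± 0.816 FPKM (SD, n = 4 each), with a log2 fold change of -0.19 (SE 0.088, limma adjusted p = 0.590). Decr1, the dienoyl-CoA reductase, stayed at 7.42 to 9.60 FPKM. In this role 3 of 4 lay below 0 and 0 had an unadjusted p under 0.05.

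In peroxisomes, the thiolase gene separated the groups and the multifunctional enzyme gene did not. Acaa1a, the thiolase, measured 15.8, 13.4, 14.5 and 16.9 FPKM in FTbR2KO 1 to 4 and 17.4, 16.9, 17.8 and 17.8 FPKM in TbR2fl/fl 5 to 8. Every library labelled FTbR2KO lay below every control, but FTbR2KO 4 (16.86 FPKM) was only just below TbR2fl/fl 6 (16.88 FPKM). The log2 fold change was -0.20 (SE 0.083, 95% interval -0.38 to -0.011, n = 4 each, limma adjusted p = 0.576). Without FTbR2KO 2 it was -0.15, and on the TPM scale -0.042. Acaa1a (chromosome 9, 119339676 to 119350299, plus strand) overlaps Myd88 and Slc22a14 on the opposite strand, and the sources used here do not say if counting used the strand. Hsd17b4, the D-bifunctional protein, measured 17.2, 18.7, 16.8 and 18.5 FPKM in FTbR2KO 1 to 4 and 18.1, 16.6, 19.3 and 17.7 FPKM in TbR2fl/fl 5 to 8, the narrowest relative range of the 33 tested members (highest over lowest 1.16). Acox3, an oxidase for branched chains, (2.02 to 2.99 FPKM) and Ehhadh (1.31 to 1.98 FPKM) were low. All 4 lay below 0.

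Of the PPAR receptors on the list, Ppard was the one expressed. Ppard measured 3.70, 4.39, 4.94 and 3.73 FPKM in FTbR2KO 1 to 4 and 3.19, 4.12, 4.24 and 4.24 FPKM in TbR2fl/fl 5 to 8. The groups overlapped. For Ppara the libraries gave 0.255, 0.360, 0.303 and 0.320 FPKM in FTbR2KO 1 to 4 and 0.275, 0.314, 0.280 and 0.284 FPKM in TbR2fl/fl 5 to 8, from 92 and 118 reads per group (exact permutation p = 0.4, 2-sided). This receptor, which governs the pathway in liver and heart muscle, thus stayed below 1 FPKM in each library. Pdk4, the kinase that shuts pyruvate dehydrogenase and is a classical PPAR target, measured 4.86, 2.20, 2.78 and 2.02 FPKM in FTbR2KO 1 to 4 and 5.02, 2.58, 2.17 and 2.61 FPKM in TbR2fl/fl 5 to 8. FTbR2KO 1 and TbR2fl/fl 5 were about alike and above the other 6 libraries, and the groups overlapped. Its log2 fold change was -0.052 (SE 0.25, 95% interval -0.61 to 0.51, n = 4 each, limma adjusted p = 0.965). Leaving out TbR2fl/fl 5 gave 0.15, leaving out FTbR2KO 1 gave -0.26, and without both it was -0.056.

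The pattern of Pdk4 recurred in part of the set. FTbR2KO 1 and TbR2fl/fl 5 were the 2 highest libraries for 6 of the 33 tested members (18.2%), Cpt1a, Crat, Acaa2, Acox3, Ehhadh and Pdk4, against 9.87% of all tested genes, a count that was chosen after the values were seen. Of the tested genes on related lists of fatty acid metabolism, 9 of 73 (12.3%) had it, with 2 of 5 in the carnitine supply, 3 of 12 other peroxisomal genes, 3 of 13 regulators and 0 of 6 PPAR targets. Outside the list, Angptl4, a secreted inhibitor of lipoprotein lipase and a PPAR target, measured 17.6, 12.4, 22.7 and 14.1 FPKM in FTbR2KO 1 to 4 and 37.8, 14.2, 10.1 and 11.8 FPKM in TbR2fl/fl 5 to 8, with TbR2fl/fl 5 the highest and FTbR2KO 3 next. Ppard did not follow, being lowest in TbR2fl/fl 5. Among the 8 fibroblast markers 1, Pdgfra, was also highest in FTbR2KO 1 (85.6 FPKM) and TbR2fl/fl 5 (71.1 FPKM), against 45.5 to 64.4 FPKM in the others. Col1a1, Col1a2 and Col3a1 were instead lowest of all in FTbR2KO 1 but high in TbR2fl/fl 5. There Col3a1 was the highest of all (4548 FPKM), and Col1a1 (5112 FPKM) and Col1a2 (1891 FPKM) were exceeded only in TbR2fl/fl 6. Tcf21 was lowest in TbR2fl/fl 5. The cardiomyocyte markers summed to 4.70 and 6.03 FPKM in these 2 libraries, against 6.19 to 7.76 FPKM in the others. Macrophage markers, of which 5 of 9 stayed under 1 FPKM in all libraries, summed to 10.6 and 10.3 FPKM in these libraries and to 7.55 to 11.0 FPKM in the others. Of the 2 macrophage markers above the filter, Cd68 was highest in these libraries (7.15 and 5.36 against 2.01 to 5.27 FPKM), while Lyz2 was lowest of all in FTbR2KO 1 (2.45 FPKM, and 3.96 in TbR2fl/fl 5). Their part in the result was not tested.

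**Figure D4:**
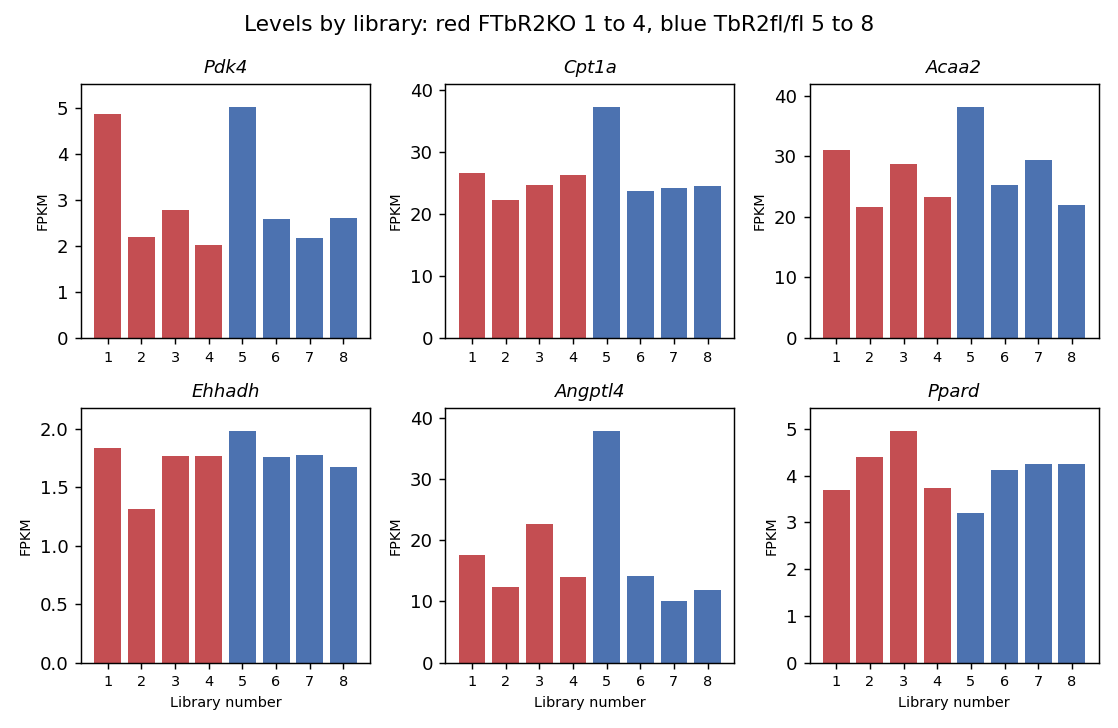
FPKM of 5 members (Pdk4, Cpt1a, Acaa2, Ehhadh and Ppard) and of the PPAR target Angptl4 in each library, 1 bar per library, with each y axis starting at 0. Libraries 1 to 4 are FTbR2KO and 5 to 8 are TbR2fl/fl, and Pdk4, Cpt1a, Acaa2 and Ehhadh are highest in libraries 1 and 5.

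**Figure D5:**
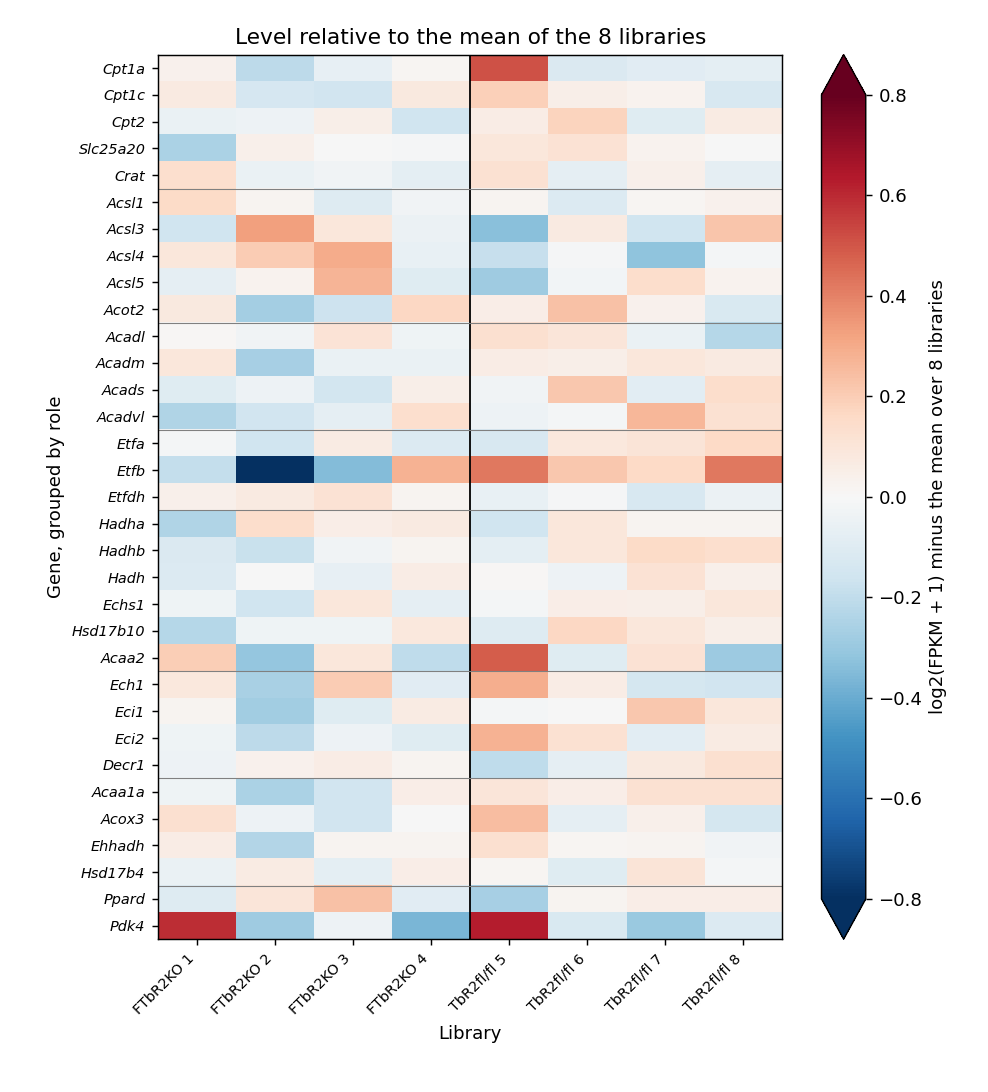
Level of the 33 tested members in each library as log2(FPKM + 1) minus the gene's mean over the 8 libraries (colour scale). Lines divide the roles and the 2 genotypes, and the strongest colours are Etfb in FTbR2KO 2 (low) and Pdk4 in FTbR2KO 1 and TbR2fl/fl 5 (high).

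Neighbouring genes of fatty acid metabolism, 105 on 10 related lists, gave 73 tested genes, of which 0 passed the adjusted threshold. At an unadjusted p under 0.05 there were 4 (5.48%), 3 higher and 1 lower, against 8.61% of all tested genes, and the median log2 fold change was -0.026. Lpl, the lipoprotein lipase that frees fatty acids from circulating lipid, stood at 50.6 ± 11.3 against 32.6 ± 6.78 FPKM (SD, n = 4 each). Its log2 fold change of 0.61 (SE 0.19) had an adjusted p of 0.571 in limma. Sirt1, a deacetylase that acts on PGC-1α, measured 5.96, 4.99, 4.81 and 4.26 FPKM in FTbR2KO 1 to 4 and 3.73, 4.07, 4.12 and 2.95 FPKM in TbR2fl/fl 5 to 8. Its groups did not overlap, as for no other of the 73 tested related genes (1.37%, against 4.41% of all tested genes). For Sirt1 the log2 fold change was 0.35 (SE 0.11, limma adjusted p = 0.571). Ncor1, a co-repressor of nuclear receptors, was 12.2 ± 0.757 against 9.92 ± 0.999 FPKM, a log2 fold change of 0.27. The one lower gene was Slc27a3, of the fatty acid transport family, at 9.34 ± 1.70 against 11.7 ± 1.24 FPKM, a log2 fold change of -0.30.

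Of 21 regulators of the pathway 13 were tested, and 5 stayed under 1 FPKM in every library. Ppargc1a, the coactivator PGC-1α that drives mitochondrial gene expression in muscle, measured 0.0161 to 0.138 FPKM. Esrra, the estrogen-related receptor that works with it, was at 6.79 ± 1.61 against 8.11 ± 0.597 FPKM, with a log2 fold change of -0.24 (SE 0.13) and an adjusted p of 0.611 in limma. Cd36, the fatty acid translocase of muscle and fat, was at 0.273 to 1.00 FPKM and below the filter. Of 14 further PPAR targets 6 were tested, with 1 above 0 and 5 below and a median of -0.12. Among the 13 tested regulators 8 lay above 0 and 5 below. Pparg, the PPAR of adipocytes, was below the filter and gave 0.644, 0.585, 1.03 and 0.282 FPKM in FTbR2KO 1 to 4 and 0.150, 0.336, 0.165 and 0.333 FPKM in TbR2fl/fl 5 to 8. FTbR2KO 1 to 3 lay above all controls and FTbR2KO 4 among them (exact permutation p = 0.0857, 2-sided). Genes of ketone body metabolism had 5 of 5 below 0 (median -0.15), among them Oxct1, which lets a cell use ketone bodies, at 43.2 ± 2.94 against 43.5 ± 2.87 FPKM. Genes of pyruvate dehydrogenase and its kinases and phosphatases had 7 of 9 below 0, with a median of -0.031. Those of the carnitine supply had 2 of 5 below 0 (0.023), the other peroxisomal genes 8 of 12 (-0.034), fatty acid uptake and binding 6 of 8 (-0.13), the other acyl-CoA dehydrogenases 2 of 6 (0.044), lipolysis 1 of 5 (0.075) and propionyl-CoA metabolism 2 of 4 (0.015).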

How the data were processed

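Values were the authors' gene-level FPKM, used as deposited, with gene names, coordinates, lengths and strand per the file headers. Tools listed in the submitters' processing notes are HTSeq 0.6.1, Cufflinks 2.1.1, TopHat2 2.0 and CASAVA; GRCm38.p6 and mm10 are the builds, and no role is stated for any. The sources used here do not say if counting used the strand. Multiplied by the deposited gene length, FPKM came in equal steps (100% of nonzero values within 0.01 of a whole number of steps), which gave the reads behind each value. These reads were used for depth and for 1 alternative only. Every pair of libraries differed beyond sampling noise (smallest chi-square per degree of freedom 18.0).

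The 11667 genes at 1 FPKM or more in 4 or more of 8 samples were put on the log2(FPKM + 1) scale. Groups were compared in R 4.3.3 by limma 3.58.1 with trended empirical Bayes variance, no covariate, 2-sided, and Benjamini-Hochberg adjustment over all tested genes. The test was tried on simulated data with changes larger than those of the members, so the trial does not show whether shifts of the members' size could be found. Members below the filter were compared by an exact permutation test on FPKM.

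The members and lists were chosen with earlier results of these data known. All members were accounted for. Values in each library were given for members with an unadjusted p under 0.05 or groups that do not overlap. They were also given for the 2 with the highest mean FPKM in each role, and for Cpt1a, Cpt1b, Acadl, Ppara, Ppard and Pdk4. From the related lists up to 3 genes each by p, with Ppargc1a, Esrra, Cd36 and Angptl4, could be named. Oxct1, Pparg, Plin1, Cd68, Lyz2, Tcf21, Cox7a1, Tnnt2 and the collagen genes were named outside this rule, after their values were seen. The related lists leave out 1 gene, which is not reported here. Alternatives were another pseudocount (0.1), other filters (none and 5 FPKM) and scalings, array weights, voom on the recovered reads, covariates, and each library left out. The length and GC correction was added after seeing the data.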

Additional observations from a re-analysis of the deposited data

Results flagged for a closer look

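In 5 of the 70 sets of 4 libraries (35 members in 2 groups), 1 library lay far from the other 3, by Dixon's test for outlying values at the 95% level. Chance flags about 1 in 20 groups. Of these 5 libraries, 3 were TbR2fl/fl 5. Cpt1a measured 37.3 FPKM there against 23.8 to 24.5 in the other controls, and Pdk4 5.02 against 2.17 to 2.61. Ppard, in contrast, was the lowest there, at 3.19 FPKM against 4.12 to 4.24. Ehhadh was lowest in FTbR2KO 2, at 1.31 FPKM against 1.76 to 1.84 in the rest of that group. Acsl1 was lowest in TbR2fl/fl 6, at 0.847 FPKM against 1.02 to 1.04.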

How the results depend on the processing

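No paired analysis was possible because the groups share no replicate number (1 to 4 in one, 5 to 8 in the other) and no label ties the codes in the titles to a litter, batch or day. In the order of those codes FTbR2KO 1 and TbR2fl/fl 5, the libraries apart on the first principal component, come first, and TbR2fl/fl 8 and FTbR2KO 4, those with Xist near 0, come last; what the codes mark was not tested. In all 21 alternatives 0 members passed the adjusted threshold. The median log2 fold change of the members, -0.070, was -0.10 with a pseudocount of 0.1, -0.095 with a filter at 5 FPKM, -0.030 with array weights, -0.086 with voom on recovered reads, -0.10 with a cardiomyocyte marker covariate, -0.039 after the length and GC correction and -0.050 without FTbR2KO 1 and TbR2fl/fl 5. Leaving out each library in turn gave -0.092 to -0.032. On the TPM scale it turned to 0.059, as did Acadm (0.017) and Eci1 (0.011), where the median of all tested genes moved to 0.15. Cpt1a (0.053), Acaa2 (0.053) and Pdk4 (0.085) turned there too. Without FTbR2KO 1 and TbR2fl/fl 5, Cpt1a turned to 0.011. Hadha, at 0.012, turned to -0.0018 with array weights and to -0.043 after the length and GC correction. Leaving out each library in turn gave -0.17 to 0.041 for Cpt1a, -0.22 to 0.034 for Acaa2, -0.26 to 0.15 for Pdk4 and -0.039 to 0.094 for Hadha. The direction turned without TbR2fl/fl 5 for all 4 of these genes, without FTbR2KO 2 or 4 for Pdk4, and without FTbR2KO 2, 3 or 4 for Hadha. The causes were not tested. Of all genes, 2 passed the threshold in the comparison as reported, 1 with the filter at 5 FPKM, which tests fewer genes, and 8 without FTbR2KO 4. Over all alternatives the limma adjusted p ran from 0.245 to 0.959 for Acsl4, from 0.179 to 0.959 for Etfb, from 0.322 to 0.978 for Etfdh and from 0.203 to 0.959 for Acaa1a, with the direction kept in each; Etfb and Etfdh were too low for the filter at 5 FPKM. The low depth of Cpt1b and Ppara, 38 and 210 reads over 8 libraries, limits what their comparison can show.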
